A study of Mus musculus with 6 samples.

Results

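The Toll-like receptor genes of mouse were followed across Tot2 cells that carried a control vector, an IRF8 vector or a KLF4 vector. The members were the 10 genes Tlr1, Tlr2, Tlr3, Tlr4, Tlr5, Tlr6, Tlr7, Tlr8, Tlr9 and Tlr13, each read through every array feature whose RefSeq accession belongs to it. All 10 were matched, by 11 features (Tlr7 by 2 and the others by 1 each), among 20284 genes matched on the array. Of the 10, 7 were tested and were well above background on all 6 arrays. The other 3, Tlr3, Tlr5 and Tlr8, were not well above background on any array and were not tested. In all, 13247 genes were tested.

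Tot2 cells are myeloid progenitors, established as a line from a mouse without Irf8, so all 3 groups share that deletion and a single cell line. The cells received by retrovirus the empty MSCV vector (control), MSCV-IRF8 or MSCV-KLF4, the last 2 coding for FLAG-tagged proteins, and each group had 2 arrays, numbered by the 2 independent experiments of the design. The growth factor was GM-CSF at 5.0 ng/ml, puromycin at 2 µg/ml was added 48 hr after transduction, and RNA was taken on day 4. The labels name no Toll-like receptor ligand for any group.

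Toll-like receptors are membrane proteins that bind molecules typical of microbes and signal through adaptor proteins such as MyD88 and TRIF to NF-kappaB and IRF transcription factors. TLR1, TLR2, TLR4, TLR5 and TLR6 act mostly at the cell surface, where they meet lipids and proteins of microbes. TLR3, TLR7, TLR8, TLR9 and TLR13 sense nucleic acids inside endosomes, where they depend on the chaperone UNC93B1 and on proteases. Monocytes, macrophages and dendritic cells carry many of them, and IRF8 and KLF4 are transcription factors of the monocyte lineage.

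Levels are log2 of the background-subtracted intensity minus the log2 of that array's 75th percentile, so 0 stands for the 75th percentile of the array. They are compared between arrays for 1 gene, not between genes, because features differ in how brightly they report. The 75th percentile ran from 436 to 974 intensity units, 47.1% to 56.8% of probes were well above background, and no spot was saturated. The lowest signals well above background lay between -5.42 and -4.32 on this scale. With 2 arrays in a group, the smallest p that exact permutation can reach (two-sided) is 0.333, so the number of arrays limits the precision. Genes were therefore tested with limma, whose spread borrows from the whole table, with an adjusted p under 0.05 as the threshold for a call.

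Irf8 signal was 0.49 and 0.64 in control, 2.94 and 3.05 in IRF8-labelled and 2.18 and 2.16 in KLF4-labelled cells. Klf4 signal was -1.62 and -1.28 in control, 4.46 and 4.61 in IRF8-labelled and -1.56 and -1.33 in KLF4-labelled cells. Klf4 signal was thus not higher on the arrays labelled KLF4. Irf8 signal was well above background on all 6 arrays, although the line lacks Irf8, and was higher with the KLF4 label than in control. Whether either probe reads the transduced sequence was not tested. Groups are therefore named by their labels, and every direction below rests on the labels.

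The 7 tested receptors were all higher in IRF8-labelled than in control cells, by 1.49-fold (Tlr9) to 213-fold (Tlr13). In KLF4-labelled cells 5 of 7 were higher than control (Tlr2, Tlr4, Tlr6, Tlr7 and Tlr13) and none was lower. Between the transduced groups 5 of 7 were higher in IRF8-labelled cells (Tlr1, Tlr2, Tlr6, Tlr7 and Tlr13) and none was lower. The calls of Tlr9 in IRF8-labelled cells, and of Tlr6 and Tlr7 in KLF4-labelled cells, lay just under the threshold and are qualified where those genes are described. The median difference of the 7 genes was 1.69, 0.56 and 1.13 in these comparisons (log2), against -0.13, -0.16 and -0.01 over all genes tested. In bulk RNA, a change in the number of cells that carry a transcript and a change in its amount per cell cannot be told apart.

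These counts stand against many calls elsewhere. Of all genes tested, limma called 61.5% different between IRF8-labelled and control cells, 25.8% higher and 35.7% lower. Between KLF4-labelled and control cells it called 19.2%, 10.4% higher and 8.85% lower, and 2544 genes became 6744 when the experiment was entered as a block. Between IRF8-labelled and KLF4-labelled cells it called 50.5%, 23.7% higher and 26.8% lower. The share of higher genes among the calls depended on the processing in both comparisons with KLF4-labelled cells. It was 53.9% for KLF4-labelled against control, and 86.4% with median scaling, 89.4% with spike-in scaling, 74.9% with normexp background correction and 65.1% in the deposited value table. Other settings turned the balance to mostly lower genes: 32.4% with the experiment as a block, 41.8% for genes well above background on all 6 arrays and 45.6% with the trend and robust settings of limma. For IRF8-labelled against KLF4-labelled cells it was 46.9%, and 35.0% with median scaling. With spike-in scaling, the median over all genes was -0.25 for IRF8-labelled against control and -0.17 for IRF8-labelled against KLF4-labelled cells, so changes are best read relative to those medians.

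**Figure D1:**
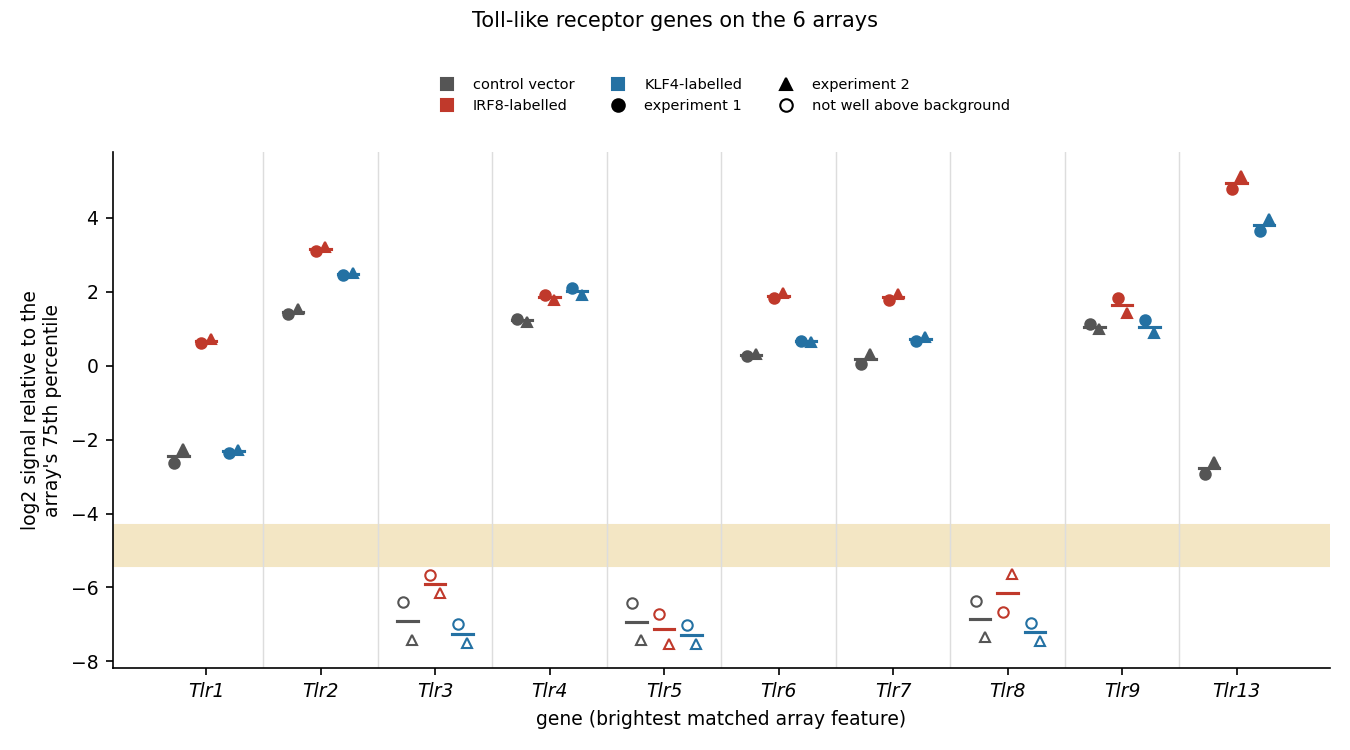
Log2 signal of the 10 Toll-like receptor genes on each of the 6 arrays, relative to the array's 75th percentile. Circles are experiment 1, triangles experiment 2, bars group means, open symbols arrays where the feature was not well above background, and the shaded band the range of the lowest signals well above background. Tlr13 lies at -2.94 and -2.61 in control cells and at 3.66 or higher in both transduced groups, while Tlr3, Tlr5 and Tlr8 have open symbols only.

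The promoter windows of the family were read next, because most tested members moved the same way. RefSeq (GRCm38.p6) gave a window from 250 bases before to 50 bases after the start for 8 of the 10 genes; Tlr4 and Tlr7 were not in the table. Together with Tlr11 and Tlr12 this made 12 windows, Tlr1 and Tlr6 having 2 each. Both strands were searched for 4 sets of letters: GAGGAA, the core bound by PU.1, GGAANNGAA, in which ETS and IRF letters meet, GAAANNGAA, the type of letters that IRF proteins bind, and GGGNGTG, a KLF core. GAGGAA stood in 5 of 12 windows (Tlr1, Tlr8, Tlr9, Tlr11 and Tlr13) and in 28.3% of all 32851 windows. GGAANNGAA stood in 0 of 12, against 8.24% of all. GAAANNGAA stood in 3 of 12 (Tlr6, Tlr8 and Tlr11), against 8.56%, and GGGNGTG in 3 of 12 (Tlr6, Tlr9 and Tlr12), against 29.2%. These are matches of letters in a window, not binding, and no set of letters was shared by the 7 tested genes.

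The 250 bases before the start are shown for the gene with the widest difference (Tlr13), for the adjacent surface receptors Tlr6 and Tlr1, and for Tlr8, which held such letters but no signal above background. Each is written 5′ to 3′ on the strand of the gene, and capitals mark the matched letters or their reverse complement. In Tlr13 the capitals are GAGGAA, starting 83 bases before the start. In Tlr6 they are the reverse complement of the KLF core and 2 overlapping copies of the reverse complement of GAAANNGAA. In Tlr1 they are GAGGAA. In Tlr8 they are the reverse complements of GAGGAA and of GAAANNGAA.
Tlr13 (chrX:106143025-106143274, plus strand): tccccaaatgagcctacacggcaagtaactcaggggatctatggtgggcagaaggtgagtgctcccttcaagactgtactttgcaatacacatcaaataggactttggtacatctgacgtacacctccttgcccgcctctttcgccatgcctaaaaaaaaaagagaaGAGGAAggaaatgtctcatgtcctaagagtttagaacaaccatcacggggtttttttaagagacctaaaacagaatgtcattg
Tlr6 (chr5:64959167-64959416, minus strand): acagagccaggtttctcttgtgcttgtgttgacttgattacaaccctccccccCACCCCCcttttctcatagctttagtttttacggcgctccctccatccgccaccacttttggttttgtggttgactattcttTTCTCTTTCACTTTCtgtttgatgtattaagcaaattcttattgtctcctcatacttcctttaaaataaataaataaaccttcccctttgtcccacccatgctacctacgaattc
Tlr1 (chr5:64933559-64933808, minus strand): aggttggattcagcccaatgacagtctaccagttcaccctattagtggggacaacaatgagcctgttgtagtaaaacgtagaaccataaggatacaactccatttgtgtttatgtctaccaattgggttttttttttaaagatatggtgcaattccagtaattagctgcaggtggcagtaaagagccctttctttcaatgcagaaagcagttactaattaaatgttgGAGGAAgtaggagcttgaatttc
Tlr8 (chrX:167264330-167264579, minus strand): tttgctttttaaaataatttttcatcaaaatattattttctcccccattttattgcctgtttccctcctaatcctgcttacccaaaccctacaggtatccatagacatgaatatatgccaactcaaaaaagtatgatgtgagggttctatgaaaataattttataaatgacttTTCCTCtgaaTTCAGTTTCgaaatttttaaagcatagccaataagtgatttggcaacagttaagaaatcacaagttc
Tlr1 and Tlr6 have a second window each in the table, in which none of the 4 sets of letters was found.

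Among the surface receptors, Tlr1 and Tlr6 encode the partners with which TLR2 binds bacterial lipopeptides. Tlr1 signal was -2.64 and -2.25 in control, 0.61 and 0.73 in IRF8-labelled and -2.37 and -2.27 in KLF4-labelled cells. Only the IRF8-labelled arrays stood apart, while the control and KLF4-labelled arrays overlapped. Tlr1 was 8.67-fold above control in IRF8-labelled cells (log2 3.12 ± 0.15 (SE), limma adjusted p = 9.64e-05) and 7.94-fold above KLF4-labelled cells (log2 2.99, limma adjusted p = 0.00024). KLF4-labelled cells differed from control by 0.13 (95% interval -0.27 to 0.52, limma adjusted p = 0.573), a difference whose sign turned with normexp correction (-0.03) and without control array 1 (-0.07).

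Tlr2 encodes the lipopeptide receptor itself. Its signal was 1.39 and 1.54 in control, 3.11 and 3.21 in IRF8-labelled and 2.46 and 2.52 in KLF4-labelled cells. The 3 groups did not overlap, and their order was control, KLF4-labelled, IRF8-labelled. Tlr2 rose 3.24-fold in IRF8-labelled cells (log2 1.70 ± 0.10 (SE), limma adjusted p = 0.000149) and 2.04-fold in KLF4-labelled cells (log2 1.03 ± 0.10 (SE), limma adjusted p = 0.00292). IRF8-labelled cells were 1.59-fold above KLF4-labelled cells (log2 0.67, limma adjusted p = 0.00427). Spike-in scaling ended the last 2 calls (adjusted p = 0.105 and 0.367, the highest of 19 alternatives, whose lowest were 0.00075 and 0.00145).

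Tlr6, which encodes the partner of TLR2 for diacylated lipopeptides, read 0.26 and 0.32 in control, 1.84 and 1.96 in IRF8-labelled and 0.68 and 0.64 in KLF4-labelled cells. The groups again did not overlap, with the KLF4-labelled arrays close above control. Tlr6 rose 3.05-fold in IRF8-labelled cells (log2 1.61 ± 0.09 (SE), limma adjusted p = 0.000133) and was 2.36-fold above KLF4-labelled cells (log2 1.24, limma adjusted p = 0.000541). The difference of 1.29-fold between KLF4-labelled and control cells (log2 0.37, limma adjusted p = 0.0474) passed narrowly. It was lost without any 1 of the 6 arrays (adjusted p = 0.0931 to 0.174) and passed in 6 of 19 alternatives, over which the adjusted p ran from 0.0171 to 0.963.

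Tlr4 encodes the receptor for bacterial lipopolysaccharide. Its signal was 1.26 and 1.19 in control, 1.92 and 1.79 in IRF8-labelled and 2.11 and 1.92 in KLF4-labelled cells. Both transduced groups lay above control, and they met each other at 1.92 to 2 decimals. Tlr4 rose 1.55-fold in IRF8-labelled cells (log2 0.63 ± 0.11 (SE), limma adjusted p = 0.00475) and 1.73-fold in KLF4-labelled cells (log2 0.79 ± 0.11 (SE), limma adjusted p = 0.00968). The 2 transduced groups differed by -0.16 (95% interval -0.43 to 0.11, limma adjusted p = 0.273). Spike-in scaling ended both calls against control (adjusted p = 0.266 and 0.265; lowest of the alternatives 0.0013 and 0.00372), and without KLF4 array 1 the second was 0.70 with adjusted p = 0.0638.

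Tlr5, which encodes the flagellin receptor, gave -6.43 and -7.42 in control, -6.73 and -7.54 in IRF8-labelled and -7.02 and -7.53 in KLF4-labelled cells. All 6 values lay below the lowest signals well above background, so they carry no order.

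**Figure D2:**
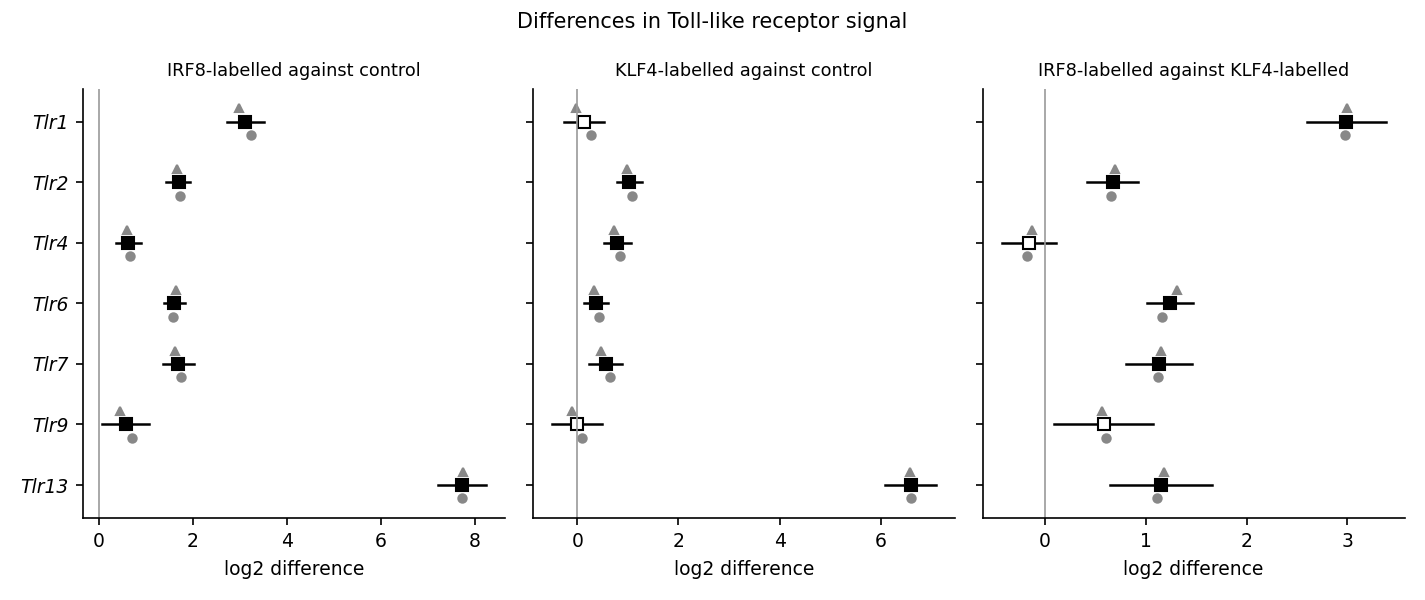
Log2 difference of each tested Toll-like receptor gene in the 3 comparisons, as squares with 95% limma intervals, filled where the adjusted p was under 0.05. Grey circles and triangles are the differences within experiment 1 and experiment 2. Both experiments gave the same sign for every gene, except Tlr1 and Tlr9 in KLF4-labelled against control cells; the axes differ between panels.

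Tlr13 encodes an endosomal receptor for a sequence of bacterial ribosomal RNA, and its promoter is shown above. Its signal was -2.94 and -2.61 in control, 4.77 and 5.14 in IRF8-labelled and 3.66 and 3.96 in KLF4-labelled cells. The control arrays were well above background but low, and the 3 groups did not overlap. Tlr13 rose 213-fold in IRF8-labelled cells (log2 7.73 ± 0.20 (SE), limma adjusted p = 1.74e-05) and 96.0-fold in KLF4-labelled cells (log2 6.59 ± 0.20 (SE), limma adjusted p = 7.72e-05). Over 19 alternatives these differences ran from 6.91 to 7.92 and from 5.78 to 6.75, and both calls held in each. IRF8-labelled cells were 2.21-fold above KLF4-labelled cells (log2 1.15, limma adjusted p = 0.00738), a call that spike-in scaling ended (adjusted p = 0.0807; lowest 0.000545).

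Tlr7, which encodes a receptor for single-stranded RNA, was read by 2 features. The brighter (A_55_P2050932) gave 0.04 and 0.31 in control, 1.79 and 1.93 in IRF8-labelled and 0.68 and 0.78 in KLF4-labelled cells. The groups did not overlap, and the KLF4-labelled arrays lay between the other groups. Tlr7 rose 3.22-fold in IRF8-labelled cells (log2 1.69 ± 0.13 (SE), limma adjusted p = 0.00033) and was 2.19-fold above KLF4-labelled cells (log2 1.13, limma adjusted p = 0.00194; 0.0675 with spike-in scaling, the highest of the alternatives, whose lowest was 0.000705). The 1.47-fold difference between KLF4-labelled and control cells (log2 0.56, limma adjusted p = 0.0441) passed in 8 of 19 alternatives (adjusted p = 0.0103 to 0.776). It was lost without control array 1 (0.128), without either IRF8 array (0.0811 each) and without KLF4 array 1 (0.132) or 2 (0.187).

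The dimmer Tlr7 feature (A_55_P2129047) gave 0.26 and -1.60 on the control arrays, so these 2 arrays disagreed more than those of the brighter feature. It read 1.40 and 1.40 in IRF8-labelled and 0.11 and 0.07 in KLF4-labelled cells. By this feature IRF8-labelled cells were higher than control by 2.07 ± 0.59 (SE, limma adjusted p = 0.0291). KLF4-labelled cells differed from control by 0.76 (95% interval -0.74 to 2.26, limma adjusted p = 0.386) and from IRF8-labelled cells by 1.31 (interval -0.19 to 2.81, limma adjusted p = 0.124). All 3 differences had the sign of the brighter feature.

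Tlr9 encodes the receptor for unmethylated CpG DNA. Its signal was 1.13 and 0.99 in control, 1.84 and 1.43 in IRF8-labelled and 1.23 and 0.88 in KLF4-labelled cells. The IRF8-labelled arrays lay above the rest, and the control and KLF4-labelled arrays overlapped. The 1.49-fold difference between IRF8-labelled and control cells (log2 0.58 ± 0.19 (SE), limma adjusted p = 0.0488) passed narrowly and held in 11 of 19 alternatives (adjusted p = 0.00597 to 0.315). It was lost without control array 1 (0.0914) or 2 (0.159), without IRF8 array 1 (0.188) and without either KLF4 array (0.0516 each). Against KLF4-labelled cells the difference was also 0.58 (95% interval 0.09 to 1.07) with limma adjusted p = 0.0558, and 0.00723 with the experiment as a block. It passed without IRF8 array 2 (0.0411), and its adjusted p ran from 0.00723 to 0.431 over the alternatives. KLF4-labelled cells differed from control by -0.01 (95% interval -0.50 to 0.49, limma adjusted p = 0.987), with no settled sign: it was 0.09 with median scaling and 0.03 with spike-in or quantile scaling.

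Tlr3 and Tlr8, which encode a receptor for double-stranded RNA and a relative of TLR7, stayed dim. Tlr3 read -6.40 and -7.41 in control, -5.65 and -6.16 in IRF8-labelled and -6.98 and -7.51 in KLF4-labelled cells. Tlr8 read -6.36 and -7.34 in control, -6.66 and -5.63 in IRF8-labelled and -6.95 and -7.44 in KLF4-labelled cells. None of these 12 signals was well above background, so no fold is given.

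The other mouse members of the family on the array, Tlr11 and Tlr12, encode endosomal receptors for the protozoan protein profilin. Tlr11 signal was -6.29 and -6.39 in control, -3.42 and -3.71 in IRF8-labelled and -6.87 and -6.68 in KLF4-labelled cells. Tlr12 signal was -6.20 and -7.21 in control, -1.22 and -1.03 in IRF8-labelled and -6.79 and -7.32 in KLF4-labelled cells. Both were well above background on the 2 IRF8-labelled arrays and on no other. Tlr12 was at least 12.9-fold higher in IRF8-labelled than in control cells (limma adjusted p = 0.000219) and at least 16.6-fold higher than in KLF4-labelled cells (limma adjusted p = 0.000376). For such a bound the dim group is the mean over its 2 arrays of the higher of that array's lowest signal well above background and the gene's own signal. Every bound here and below holds for the reported processing, and alternatives could give smaller differences. For Tlr12 the lowest were 2.22 and 2.25 (log2). Tlr11 was at least 2.38-fold higher than control (limma adjusted p = 0.000104) and at least 3.05-fold higher than in KLF4-labelled cells (limma adjusted p = 0.000178). Normexp correction ended both Tlr11 calls (adjusted p = 0.153 and 0.113; lowest of the alternatives 5.27e-06 and 1.57e-06). Because both passed the filter only through the group where they read higher, these 2 genes are given as values and not as further support.

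For each tested receptor the 3 genes with the nearest pattern were found by Euclidean distance over the 6 arrays, with log2 values set to the control mean. Tlr1 was nearest to Rab43 (0.09), Ank (0.11) and Slc39a12 (0.29). Tlr2 was nearest to Srxn1 (0.12), Camta2 (0.15) and Cast (0.18), and Tlr4 to Zfp488 (0.09), Cpne5 (0.23) and Cebpb (0.23). These neighbours are a description of similar differences, sought among the 13247 tested genes with clone, locus and predicted names left out. Tlr6 was nearest to Efhd2 (0.14), Wtip (0.15) and Wipf1 (0.16), and Tlr7 to Tfe3 (0.06), Map3k14 (0.12) and Jund (0.16). Tlr9 was nearest to Gnb2 (0.07), Scand1 (0.09) and Tmem215 (0.09). For Tlr13, whose differences from control were the largest of the tested receptors, the nearest were Galnt6 (0.88), C3ar1 (1.01) and Clec4a1 (1.02). These 3 genes differed from control by 7.76, 8.17 and 7.03 in IRF8-labelled and by 6.05, 6.12 and 6.67 in KLF4-labelled cells. Distances were not scaled to the size of the differences, so they are not compared between receptors.

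The genes that work with the receptors were counted from lists by role, 84 genes in all, of which 83 were on the array and 74 were tested. Over these 74 genes, 40 were higher and 12 lower in IRF8-labelled than in control cells. In KLF4-labelled cells 26 were higher and 3 lower than control, and between the transduced groups 29 were higher and 18 lower in IRF8-labelled cells. These calls were 70.3%, 39.2% and 63.5% of the 74 genes, against 61.5%, 19.2% and 50.5% of all genes tested. For higher genes the background was 25.8%, 10.4% and 23.7%, and for lower genes 35.7%, 8.85% and 26.8%, and the counts of each list below stand beside these shares. Of the genes above control, 6 in IRF8-labelled cells (Ctss, Lgmn, Il1b, Il1r1, Il1rl1 and Nlrp3) and 5 in KLF4-labelled cells (the same without Il1r1) were below background on both control arrays. Like Tlr11 and Tlr12, they passed the filter only through groups where they are high, so their bounds are values and not support. Il6, also below background on both control arrays, passed the filter through the KLF4-labelled arrays alone, so the filter favoured its direction too. Il6 was not called in KLF4-labelled against control cells (log2 2.39, limma adjusted p = 0.0671). Without those 6 and 5 genes the IRF8-labelled cells had 34 genes above control and 12 below it, and the KLF4-labelled cells 21 above and 3 below. These counts still hold Map3k8, Irf7 and Nod2, and in IRF8-labelled cells Ticam2, each well above background on 1 of 2 control arrays. Those genes likewise passed the filter only through transduced groups, where they read higher, so they are values and not support.

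Scaling and the block moved these totals. Spike-in scaling left 28 higher and 5 lower in IRF8-labelled and 23 higher and 0 lower in KLF4-labelled cells, and 13 higher and 6 lower between the transduced groups. With the experiment as a block, KLF4-labelled against control cells had 33 higher and 16 lower. Against control with the IRF8 label, spike-in scaling took the calls from 3 to 1 for the chaperones, from 4 to 1 for the adaptors, from 5 to 2 for the transcription factors and from 6 to 3 for the inhibitors. Between the transduced groups it took the co-receptors from 5 to 3, the chaperones from 2 to 1, the transcription factors from 2 to 1, the cytokine and feedback genes from 6 to 3 and the interleukin-1 receptor family from 4 to 2.

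The co-receptors hand ligands to the surface receptors or pair with them. In IRF8-labelled cells 4 of 6 were higher than control and 1 was lower (median 2.90); in KLF4-labelled cells 2 were higher and 1 lower (median 0.63). Ly96, the MD-2 subunit of the lipopolysaccharide receptor, rose 13.9-fold and 6.89-fold in these groups (log2 3.79 and 2.79, SE 0.19, limma adjusted p = 9.72e-05 and 0.000853). Cd14, which passes lipopolysaccharide to MD-2, rose 4.00-fold and 3.12-fold (limma adjusted p = 0.000128 and 0.000826). Cd180 and Ly86 encode a TLR4-like pair of surface proteins. Cd180 rose 3.80-fold and Ly86 14.8-fold in IRF8-labelled cells (limma adjusted p = 0.000635 and 5.21e-05). In KLF4-labelled cells Cd180 differed from control by -0.37 (limma adjusted p = 0.197; 0.0343 with the experiment as a block).

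Ly86 was 1.65-fold lower in KLF4-labelled cells than in control (log2 -0.72, limma adjusted p = 0.0345), a call lost without any 1 of the 6 arrays (adjusted p = 0.0518 to 0.147). Lbp, which encodes the protein that carries lipopolysaccharide to CD14, was 21.8-fold lower in IRF8-labelled cells than in control (log2 -4.45 ± 0.13 (SE), limma adjusted p = 2.3e-05). In KLF4-labelled cells it differed by -0.44 (limma adjusted p = 0.0713; 0.00858 with the block). Cd36, a scavenger receptor that works with TLR2 and TLR6, read -6.48 and -1.91 on the 2 control arrays, and its differences of 3.95 and 2.75 carried an SE of 1.45 (limma adjusted p = 0.0638 and 0.226). The Cd36 differences were 1.67 and 0.47 without control array 1 and 6.23 and 5.04 without control array 2. Between the transduced groups, 4 of 6 were higher in IRF8-labelled cells and 1 was lower (median 1.10), led by Ly86 (4.61), Lbp (-4.01) and Cd180 (2.30); Ly96 differed by 1.01, and Cd14 by 0.36 (limma adjusted p = 0.0426), a call lost without any 1 array (0.062 to 0.194).

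The chaperones fold and move the receptors. Unc93b1, which escorts the nucleic acid receptors to endosomes, rose 5.08-fold in IRF8-labelled cells (log2 2.34 ± 0.16 (SE), limma adjusted p = 0.000218) and was 3.95-fold above KLF4-labelled cells (limma adjusted p = 0.000679). In KLF4-labelled cells it differed from control by 0.36 (limma adjusted p = 0.159; 0.0156 with the block). Slc15a4, an endolysosomal transporter used in TLR7 and TLR9 signalling, rose 1.85-fold in IRF8-labelled cells (limma adjusted p = 0.011), a call lost without IRF8 array 2 (0.0512), and differed from control by 0.17 in KLF4-labelled cells. Hsp90b1, the folding chaperone gp96, was 1.56-fold lower in IRF8-labelled cells (limma adjusted p = 0.00285) and 1.34-fold lower in KLF4-labelled cells (limma adjusted p = 0.0377). The second of these calls was lost without any 1 array (adjusted p = 0.0877 to 0.177), and spike-in scaling ended the first (0.0955; lowest of the alternatives 0.000949). Cnpy3, a partner of gp96, differed from control by -0.20 and -0.35 (limma adjusted p = 0.121 and 0.0594; 0.0384 and 0.0171 with the block). In counts, 2 of 4 were higher and 1 lower in IRF8-labelled cells (median 0.34), and 1 of 4 was lower in KLF4-labelled cells (median -0.09). Compared directly, Unc93b1 and Slc15a4 were higher in IRF8-labelled cells and none of the 4 was lower (median 0.44); Slc15a4, at 0.72, lost that call without IRF8 array 1 (0.0527) or 2 (0.113) or KLF4 array 1 (0.121).

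The endosomal proteases cut the nucleic acid receptors, and the 2 that were measured in control cells, Ctsb and Ctsl, were higher than control in both transduced groups. The other 2, Ctss and Lgmn, were below background on both control arrays and entered the test through the transduced groups alone. The median of the 4 was 6.55 and 4.06 with these at their bound. Ctss, which encodes cathepsin S, was at least 8051-fold above control with the IRF8 label and at least 604-fold above it with the KLF4 label (limma adjusted p = 9.44e-06 and 5.56e-05). Lgmn, the asparagine endopeptidase, was at least 1251-fold and at least 86.4-fold higher (limma adjusted p = 1.95e-05 and 0.000154). These bounds hold for the reported processing. Over the alternatives the lowest log2 differences were 10.74 and 7.03 for Ctss and 8.38 and 4.57 for Lgmn. Ctsb rose 7.08-fold and 2.71-fold and Ctsl 4.22-fold and 3.20-fold. All 4 were also higher with the IRF8 than with the KLF4 label (median 2.56), by 3.86 for Lgmn, 3.74 for Ctss, 1.39 for Ctsb and 0.40 for Ctsl. The Ctsl call was lost without IRF8 array 1 (adjusted p = 0.0917) or 2 (0.0851) and without KLF4 array 1 (0.0593) or 2 (0.100).

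The adaptors link the receptors to kinases, and their differences from control ran from -0.69 (Tirap) to 1.83 (Ticam2) in IRF8-labelled cells and from -0.21 (Ticam1) to 1.44 (Ticam2) in KLF4-labelled cells. In IRF8-labelled cells 3 of 5 tested were higher than control and 1 lower (median 0.39); in KLF4-labelled cells 1 was higher (median -0.01); Sarm1 was not tested. Ticam1, which encodes TRIF, rose 1.57-fold in IRF8-labelled cells (limma adjusted p = 0.00201; 0.256 with spike-in scaling, lowest of the alternatives 0.000826) and differed by -0.21 in KLF4-labelled cells (limma adjusted p = 0.149; 0.045 with the block). Myd88 rose 1.31-fold in IRF8-labelled cells (limma adjusted p = 0.0355), a call that held in 9 of 19 alternatives and was lost without any array but control array 2 (0.0628 to 0.157). In KLF4-labelled cells Myd88 differed by -0.01, with no settled sign: it was 0.44 at most and -0.12 at least over the alternatives, scaling among them. Tirap, the bridge to MyD88 for TLR2 and TLR4, was 1.61-fold lower in IRF8-labelled cells (limma adjusted p = 0.0112), a call lost without IRF8 array 1 (0.0576). In KLF4-labelled cells it differed by -0.20 (0.371; 0.0475 with the block).

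Ticam2, the bridge to TRIF for TLR4, rose by 1.83 ± 0.40 (SE) in IRF8-labelled cells (limma adjusted p = 0.0117), with 1 of 2 control arrays well above background. That call was lost without IRF8 array 1 (0.0519) and with normexp correction (0.376; lowest of the alternatives 0.00122), where the difference was 0.35. In KLF4-labelled cells Ticam2 differed by 1.44 (0.0639), and by 2.03 without control array 2 (0.00569). Pik3ap1, an adaptor to phosphoinositide kinase, differed by 0.15 in IRF8-labelled cells (limma adjusted p = 0.285). It was 1.44-fold higher in KLF4-labelled cells (limma adjusted p = 0.0357), a call lost without any 1 array (0.0744 to 0.158). Set against each other, the transduced groups differed in 4 adaptors: Ticam1 (0.86) and Myd88 (0.40) were higher and Tirap (-0.49) and Pik3ap1 (-0.37) lower in IRF8-labelled cells (median 0.39). The count of 4 adaptors called in IRF8-labelled against control cells became 1 without IRF8 array 1, and that between the transduced groups became 1 without IRF8 array 1, IRF8 array 2 or KLF4 array 2 and 2 without KLF4 array 1. With spike-in scaling the 4 calls between the transduced groups became 0. Leaving out each IRF8-labelled or KLF4-labelled array ended the calls of Myd88 (0.0789 to 0.164) and Tirap (0.0517 to 0.173). The call of Pik3ap1 was lost without any array but KLF4 array 1 (0.0606 to 0.181).

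Most kinases and ubiquitin ligases of the pathway passed in no comparison with control. In IRF8-labelled cells 4 of 16 were higher and 2 lower (median 0.16), and in KLF4-labelled cells 2 were higher (median -0.07). Map3k8, the kinase upstream of ERK in this pathway, rose 11.1-fold and 12.5-fold (limma adjusted p = 5.07e-05 and 0.000135), with 1 of 2 control arrays well above background. The Map3k8 log2 differences of 3.47 and 3.64 fell as far as 1.82 and 1.95 over the alternatives. Ikbke, which phosphorylates IRF factors, rose 3.27-fold in KLF4-labelled cells (limma adjusted p = 0.00414) and differed by -0.15 in IRF8-labelled cells (0.499). Directly compared, Ikbke was 3.64-fold lower with the IRF8 than with the KLF4 label (limma adjusted p = 0.00121). In IRF8-labelled cells Tab2 (0.63), Map3k7 (0.60) and Ikbkg (0.39), parts of the kinase complexes before NF-kappaB, were the other genes above control, and Traf3 (-0.84) and Irak1 (-0.77) were below it. Ikbkg was lost without control array 1 (0.077) and without IRF8 array 1 (0.0581) or 2 (0.0876), and Traf3 without control array 2 (0.11) or IRF8 array 1 (0.116). The count of 6 calls in IRF8-labelled cells became 11 with the experiment as a block and 1 with spike-in scaling, and the 2 calls in KLF4-labelled cells became 6 with the block.

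Of these 16, between the transduced groups, 3 were higher in IRF8-labelled cells (Tab2 at 0.87, Map3k7 at 0.74 and Peli1 at 0.57) and 2 lower (Ikbke at -1.86 and Irak1 at -0.46). Peli1 encodes a ubiquitin ligase and Irak1 a kinase that binds MyD88. Peli1 was lost without any IRF8-labelled or KLF4-labelled array (0.0574 to 0.149), and Irak1 without IRF8 array 2 (0.059) or KLF4 array 2 (0.0523); the 5 calls became 3 without the latter, and with spike-in scaling 1, a lower one.

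Of the transcription factors at the end of the pathway, Irf5 and Irf7 differed most. Irf5 rose 133-fold with the IRF8 label and 4.80-fold with the KLF4 label (log2 7.06 and 2.26, SE 0.20, limma adjusted p = 2.2e-05 and 0.00224) and was 27.8-fold higher in the first of these groups (limma adjusted p = 0.000165). Irf7 rose 4.42-fold and 4.12-fold (limma adjusted p = 0.000244 and 0.00111), with 1 of 2 control arrays well above background. The Irf7 log2 differences of 2.15 and 2.04 fell as far as 0.92 and 0.75 over the alternatives. Normexp correction ended the second call (limma adjusted p = 0.101, lowest 0.000348). In all 3 of 5 tested genes were higher and 2 lower in IRF8-labelled cells (median 0.87), and 2 were higher in KLF4-labelled cells (median 0.39). The 5 calls became 3 without control array 2 and without IRF8 array 1 or 2. The other calls were Rela (0.87), Irf3 (-0.41) and Nfkb1 (-0.37) in IRF8-labelled cells. Rela was lost without IRF8 array 1 (0.0642) or 2 (0.0863), and Irf3 without control array 2 (0.0873) or IRF8 array 1 (0.106). Nfkb1 was lost without control array 1 (0.101) or 2 (0.0679) and without IRF8 array 2 (0.133). In the transduced groups compared directly, only Irf5 was called higher and Irf3 (-0.36) lower in IRF8-labelled cells (median 0.10), and Irf3 was lost without any array of these groups (0.0705 to 0.168). Rel was not tested.

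Inhibitors of the pathway were higher in part. In IRF8-labelled cells 5 of 9 were higher and 1 lower (median 0.53), and in KLF4-labelled cells 3 were higher (median 0.11). Tnfaip3, the ubiquitin-editing enzyme A20, rose 3.96-fold and 5.29-fold (limma adjusted p = 0.000957 and 0.00213). Nfkbia, which encodes the inhibitor of NF-kappaB alpha, rose 2.06-fold and 4.18-fold (limma adjusted p = 0.00623 and 0.00254) and was 2.03-fold lower with the IRF8 than with the KLF4 label (limma adjusted p = 0.00914). Tnip1, a partner of A20, rose 1.47-fold and 2.11-fold (limma adjusted p = 0.0139 and 0.00609), calls lost without IRF8 array 2 (0.0696) and without KLF4 array 2 (0.0534). Tollip (0.53) and Socs1 (0.53) were the other higher genes in IRF8-labelled cells, and Socs1 was lost without IRF8 array 1 (0.052). Sigirr, an inhibitory receptor of the interleukin-1 receptor family, was 2.40-fold lower in IRF8-labelled cells (limma adjusted p = 0.00043).

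Of the inhibitors, between the transduced groups, 4 of 9 were lower in IRF8-labelled cells and 2 higher (median -0.42), and with median scaling 4 were lower and none higher. The 6 calls became 2 without IRF8 array 1, without KLF4 array 2 and with spike-in scaling. Beside Nfkbia these were Sigirr (-0.89), Irak3 (-0.75), Tnip1 (-0.52), Tollip (0.43) and Socs1 (0.43). Of these 5 only Sigirr kept its call without each array. Irak3, an inactive kinase that blocks signalling, was lost without IRF8 array 1 (0.0529) or KLF4 array 2 (0.0625). Tnip1 was lost without any array of these groups (0.0578 to 0.105), Tollip without IRF8 array 1 (0.0804) or KLF4 array 1 (0.0569) or 2 (0.0669), and Socs1 without any of them but KLF4 array 1 (0.0691 to 0.116).

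Cytokines and feedback genes that the receptors induce were next, in cells whose labels name no ligand. Of 9 tested, 6 were higher and 1 lower in IRF8-labelled cells (median 1.30), and 7 were higher in KLF4-labelled cells (median 1.21 with dim genes at their bound). Normexp correction left 4 of the 7 calls in KLF4-labelled cells. Il1b counts among the higher genes of both groups although it was below background on both control arrays. Il1b was at least 4.07-fold and at least 14.4-fold above control (limma adjusted p = 0.000305 and 0.000348) and 3.55-fold lower with the IRF8 than with the KLF4 label (limma adjusted p = 0.00571). Ccl4 rose 35.7-fold and 19.4-fold, and Ccl5 24.8-fold and 2.92-fold (limma adjusted p = 1.15e-05 to 0.00284); both encode chemokines. Normexp correction ended the Ccl5 call in KLF4-labelled cells (0.0976; lowest 0.000787).

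Cxcl10 rose 2.56-fold in IRF8-labelled cells (limma adjusted p = 0.000573), and Ccl3 rose 2.46-fold and 3.11-fold (limma adjusted p = 0.00124 and 0.0025). Nfkbiz, which encodes an inducible NF-kappaB cofactor, was the only gene of the list below control in IRF8-labelled cells, by 2.12-fold (limma adjusted p = 0.00133; 0.0884 with normexp, lowest 0.000393). It was above control in KLF4-labelled cells by 1.86-fold (limma adjusted p = 0.0115), a call lost without control array 2 (0.0543) and without KLF4 array 1 (0.0787) or 2 (0.0621). Compared directly, Ccl5 (3.09), Ccl4 (0.88) and Cxcl10 (0.81) were higher in IRF8-labelled cells and Nfkbiz (-1.98), Il1b (-1.83) and Tnf (-0.42) lower (median -0.33). The Tnf call was lost without any array of these groups (0.0724 to 0.169), and its sign turned in the deposited value table (1.16). Il10, Ifnb1, Cxcl1, Cxcl2 and Ptgs2 were not tested, and Il12b was not matched.

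The interleukin-1 receptor family shares the signalling domain of the Toll-like receptors. Il1rl1, the receptor for interleukin-33, was at least 99.4-fold higher in IRF8-labelled cells (limma adjusted p = 3.02e-05) and at least 1.84-fold higher in KLF4-labelled cells (limma adjusted p = 0.00526; 0.274 with normexp correction, lowest 0.000287). Il1r1 was at least 2.67-fold higher in IRF8-labelled cells (limma adjusted p = 0.00252, and 0.1 with normexp correction, lowest 3.29e-07) and below background in the other groups. A floor for dim probes also ended this Il1r1 call and the Il1rl1 call in KLF4-labelled cells. Averaging the probes of a gene ended that Il1rl1 call as well. Il18rap was 2.43-fold lower in IRF8-labelled cells and 1.63-fold lower in KLF4-labelled cells (limma adjusted p = 0.000199 and 0.00594), the second call being lost without KLF4 array 1 (0.0537). Il1rap, the shared accessory chain, was 1.73-fold lower in IRF8-labelled cells (limma adjusted p = 0.00884; 0.0574 with spike-in scaling, lowest 0.00349). Il1rl1 and Il1r1 were below background on both control arrays and passed the filter only through groups where they read higher, so their bounds are values and not support. With them, 2 of 4 tested were higher and 2 lower in IRF8-labelled cells (median 0.31 with dim genes at their bound), and 1 was higher and 1 lower in KLF4-labelled cells (median 0.06). The same 2 were higher and the same 2 lower with the IRF8 than with the KLF4 label (median 0.60), with Il1rap lost without KLF4 array 2 (0.0521).

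Sensors outside the family also differed. Of 12, 7 were higher and 1 lower in IRF8-labelled cells (median 0.92 with dim genes at their bound), and 4 were higher in KLF4-labelled cells (median 0.35), which became 8 higher and 2 lower with the experiment as a block. Nod2, a cytosolic sensor of bacterial cell wall, rose 66.3-fold and 16.8-fold (limma adjusted p = 0.000216 and 0.00329), with 1 of 2 control arrays well above background. The Nod2 log2 differences of 6.05 and 4.07 fell as far as 4.09 and 2.32 over the alternatives. Nlrp3, the inflammasome sensor, was at least 31.8-fold and at least 5.28-fold higher (limma adjusted p = 7.42e-06 and 9.74e-05; 0.0573 with normexp for the second, lowest 1.09e-05). Nlrp3 was below background on both control arrays, and without it 6 sensors were higher in IRF8-labelled and 3 in KLF4-labelled cells. Both counts still hold Nod2, which also passed the filter only through the transduced groups. Zbp1, a sensor of Z-form nucleic acid, rose 13.6-fold and 11.2-fold (limma adjusted p = 5.6e-05 and 0.000212). Dhx58 rose 2.62-fold and 1.54-fold (limma adjusted p = 0.000201 and 0.0119), the second call being lost without control array 1 (0.0633) and without KLF4 array 1 (0.0829) or 2 (0.0713). Cgas, the cytosolic DNA sensor, was 2.14-fold lower in IRF8-labelled cells (limma adjusted p = 0.00158).

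Between the transduced groups 6 of 12 sensors were higher in IRF8-labelled cells and 3 lower (median 0.52). Nlrp3 (2.59), Nod2 (1.98), Sting1 (1.39) and Mavs (0.97), the last 2 coding for adaptors of DNA and RNA sensing, led the higher ones. Nod2 was lost without IRF8 array 2 (0.0525) or KLF4 array 1 (0.0642), and Mavs without IRF8 array 2 (0.0591) or KLF4 array 1 (0.0724). The 9 calls became 5 without KLF4 array 1, and 3 higher and 0 lower with spike-in scaling. The lower ones were Nod1 (-0.62), Cgas (-0.59) and Nlrc4 (-0.43). Nod1 was lost with spike-in scaling (0.121; lowest of the alternatives 0.00197). Cgas was lost without IRF8 array 1 (0.0891) and KLF4 array 1 (0.059) or 2 (0.0903), and Nlrc4 without IRF8 array 2 (0.135) and KLF4 array 1 (0.117) or 2 (0.106).

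**Figure D3:**
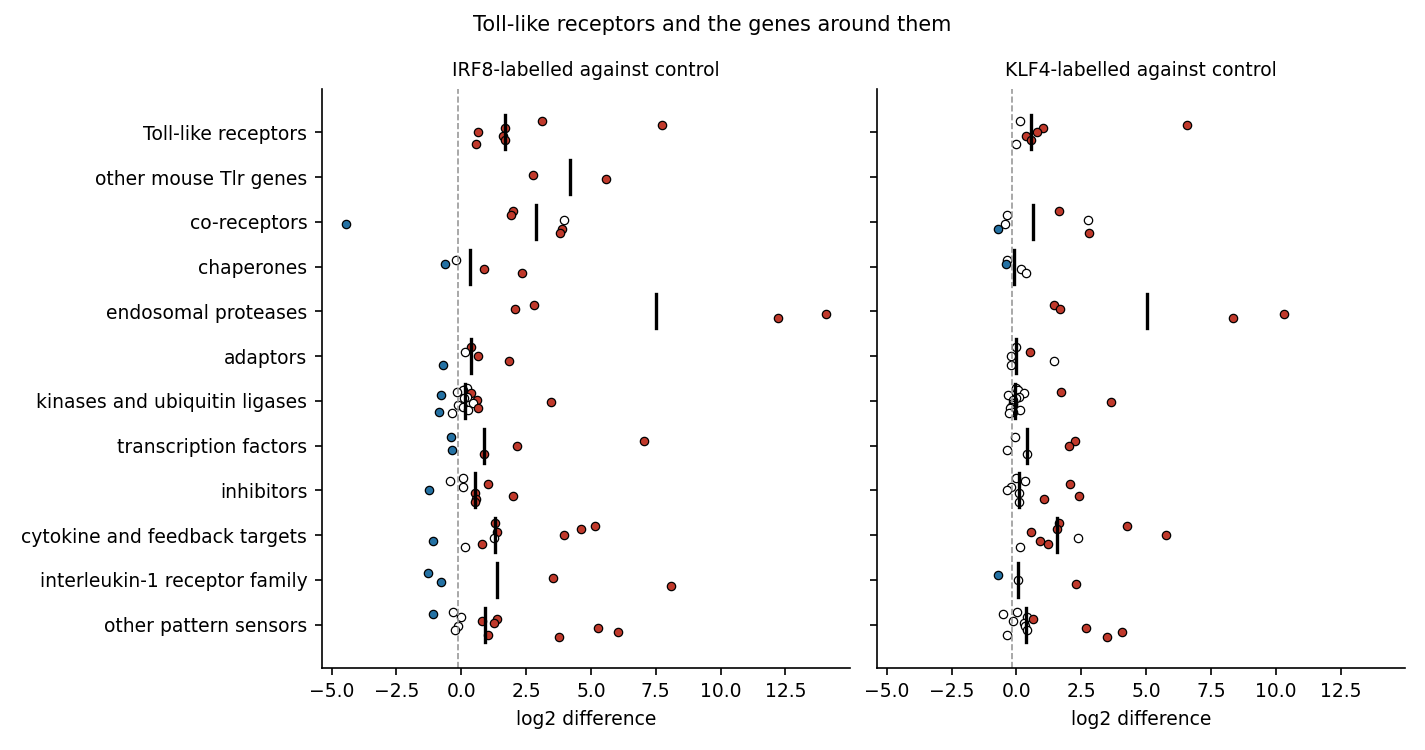
Log2 difference from control of each tested Toll-like receptor and each tested gene of the lists around them, in IRF8-labelled cells (left) and KLF4-labelled cells (right). Red points were called higher and blue points lower by limma, open points were not called, black bars are medians of the points and the dashed line is the median over all genes tested. Genes below background in both groups are left out, and genes below background in control alone are at their fitted value, not at their bound; the points farthest right are Ctss and Lgmn.

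Markers of cell types were summed as linear signal per array, as a check of the label and of what moved with the receptors. A linear sum is led by the brightest features of its list, so it need not show what the other members did. Monocyte and macrophage markers (5 of 6 matched) summed to 24.2 to 30.3 in control, 197 on both IRF8-labelled arrays and 84.1 to 89.5 in KLF4-labelled cells, in units of the 75th percentile. Neutrophil markers (5 of 6 matched) summed to 659 to 809, 21.6 to 22.1 and 368 to 506. Progenitor markers, the labelled cell type, summed to 1039 to 1394, 353 to 446 and 711 to 1061, although Kit was below background in every group and Cd34 in all but the IRF8-labelled cells. Plasmacytoid dendritic cell markers summed to 118 to 135, 111 to 137 and 95.2 to 128. Siglech, high on all 6 arrays (6.02 to 6.68), led this sum, and Klk1 was below background. Tcf4 was lower than control in both transduced groups (-0.46 and -0.70), and no tested member of this list was called higher.

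Type 1 conventional dendritic cell markers (4 of 5 matched) summed to 0.103 to 0.117, 5.03 on both arrays and 0.648 to 0.699. Clec9a was at least 9.39-fold above control in IRF8-labelled cells and Batf3 58.6-fold, while Xcr1 and Cadm1 were below background on every array. Clec9a passed the filter through the 2 IRF8-labelled arrays alone, so its bound is a value and not support. B cell markers had none of 6 well above background on both arrays of any group (sums 0.0944 to 0.173). T cell markers summed to 8.19 to 8.29, 5.34 to 6.28 and 5.57 to 7.13. Within this list Cd3e read 0.15 and -0.14 in control and 1.29 and 0.63 in IRF8-labelled cells. Lck went the other way, from 1.89 and 2.20 to -1.11 and -0.66. Fibroblast or packaging cell markers summed to 0.167 to 0.171, 0.143 to 0.202 and 0.126 to 0.219, with Pdgfra, Pdgfrb and Dcn below background in every group. The part of these marker changes in the Toll-like receptor results was not tested.

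**Figure D4:**
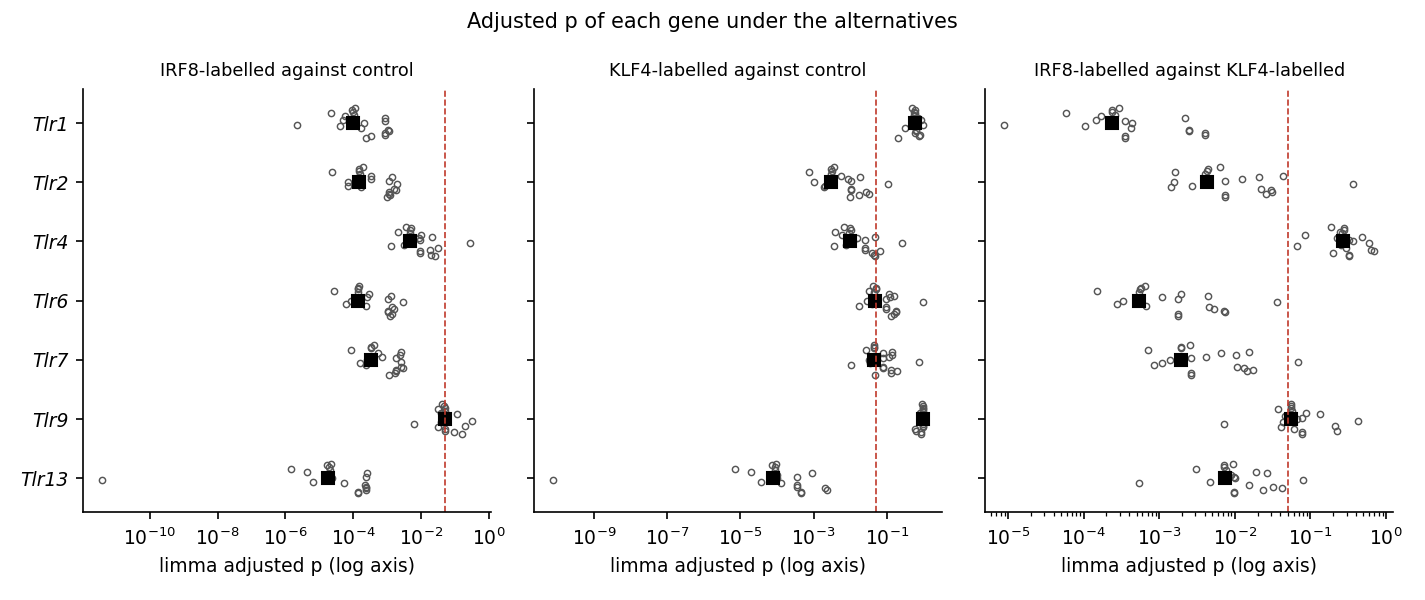
Adjusted p of each tested Toll-like receptor gene in the 3 comparisons (log axis): black squares for the reported fit, open circles for 19 alternatives, and a dashed red line at 0.05. In IRF8-labelled against control cells all alternatives of Tlr1, Tlr2, Tlr6, Tlr7 and Tlr13 lie left of the line, while those of Tlr9, and of Tlr6 and Tlr7 in KLF4-labelled against control cells, lie on both sides.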

How the data were processed

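Total RNA of 6 cultures was labelled with Cy3 and read on 6 Agilent mouse arrays of 1 colour, 62976 spots each. Agilent Feature Extraction 10.7.3.1 wrote the deposited intensity values, per the file headers; it took off background and spatial trend on each array and left arrays unscaled against each other. An alternative used the deposited value table, also intensity. Its columns equalled the processed signal multiplied by 1 factor an array, from 0.642 to 1.388 (181 to 235 probes were off by over 1%), and their medians ran from 24.5 to 29.3; who chose the factors and how is not given in the sources used here. The header names the mm9 build, so no gene coordinates are given; promoter windows are those of RefSeq.

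Control spots were left out (59305 spots of 55681 probes remained), replicate spots were averaged and 75 probes with flagged spots dropped. Of 28390 RefSeq-form accessions, 26762 were matched to a gene. The measure was log2 of the processed signal minus the array's 75th percentile. The feature with the highest mean over the 6 arrays stood for a gene, and genes were tested if that feature passed the well-above-background flag on each array of 1 or more groups. A single limma 3.58.1 fit (R 4.3.3) over all 6 arrays, 3 residual degrees of freedom, two-sided, with Benjamini-Hochberg adjustment over 13247 genes, was used and was tested on simulated data.

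Members, gene lists and motifs were chosen with earlier results of these data known. All 10 members, all co-receptors, chaperones and adaptors, and up to 4 called genes per other list and comparison with the largest differences are named; further members of counts of 5 or fewer were named after their values were seen. Replicate numbers mark the experiment, and also the slide. Deviations from group means correlated across genes between same-numbered arrays (r = 0.282 for control with IRF8, 0.321 for control with KLF4, 0.391 between IRF8 and KLF4). A fit with the experiment as a block was therefore run as an alternative, while the reported fit had no term for the experiment. The design calls the experiments independent; with 2 arrays a group, p-values rest on the spread between them. The mean spot signal was not used; normexp correction (offset 50) took the median signal and median background. Spike-in scaling used 8 control probes. Other alternatives were median and quantile scaling, other filters and a floor for dim probes, averaging the probes of a gene, testing probes singly, trend and robust settings in limma, only the 2 groups compared, and each array left out.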

Additional observations from a re-analysis of the deposited data

How the results depend on the processing

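In IRF8-labelled against control cells, 7 of 7 receptors were called, and the alternatives gave 5 to 7; leaving out 1 array gave 6 to 7. In KLF4-labelled against control cells the 5 calls fell to 3 with median scaling, normexp correction, no filter on dim probes or only the 2 groups compared, and to 1 with spike-in scaling; leaving out 1 array gave 2 to 4. In IRF8-labelled against KLF4-labelled cells the 5 calls fell to 2 with spike-in scaling, and leaving out 1 array gave 5 to 6. With no filter more genes were tested, and with only the 2 groups compared fewer arrays gave the spread; for the other settings the cause was not tested. Only Tlr1 and Tlr9 in KLF4-labelled against control cells changed sign, both uncalled: Tlr1 to -0.03 with normexp and -0.07 without control array 1, and Tlr9 to 0.09 with median scaling, 0.03 with quantile normalization and with spike-in scaling, 0.04 in the deposited table, 0.07 without control array 1 and 0.17 without KLF4 array 2. Over the arrays left out, Tlr1 ran from -0.07 to 0.32 and Tlr9 from -0.18 to 0.17 there. Of 399 alternative values of single receptors, 347 kept their direction and side of the threshold, 39 lost a call, 5 gained one and 8 changed sign. The replicate block gained Tlr9 between IRF8-labelled and KLF4-labelled cells (adjusted p = 0.00723) and changed no other call of a receptor. With spike-in scaling, only 8 probes set the level of an array, and all-gene calls fell from 8146, 2544 and 6695 to 4623, 887 and 2719. For KLF4-labelled against control cells they were 1458 with median scaling, 1052 with normexp, 974 without the filter and 1497 with only the 2 groups compared; leaving out 1 array gave 881 to 1497. Signal over background limits Tlr3, Tlr5 and Tlr8, which could have changed below it.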
